A study of Pyrus pyrifolia with 6 samples.

Results

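The regions described here are CHH losses close to CHH gains: stretches of pear chromosome with a lower mean CHH methylation level in bagged than in unbagged fruit skin, with a region of higher CHH level no more than 2000 bp away. The authors' table holds 53954 differentially methylated regions, of which 46661 are CHH regions on the 17 chromosomes. Lower in bagged skin were 4533 of these, 9.71% of the CHH regions listed on chromosomes, and 42128 were higher. A gain lay within 2000 bp of 1582 of the losses, counted as the bases between the facing edges. The sign of the difference and the distance chose these 1582 regions, so their lower level and their closeness to a gain are the rule and not a result. Regions on unplaced scaffolds were left out.

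The assay was bisulfite sequencing of the whole genome, in which unmethylated cytosines are read as thymine, on fruit skin of Pyrus pyrifolia 'Cuiguan', a pear cultivar whose skin becomes partly russet, that is, brown and corky. Bagged fruit (3 samples) was covered with single-layer white paper bags at 20 days after full bloom and with double-layer yellow-white bags at 40 days. Unbagged fruit (3 samples) was left uncovered. All fruit came from 7-year-old trees of this cultivar and was harvested at 115 days after full bloom, and the design relates the comparison to how russet skin forms. Each region has 1 mean level per group in which the replicates are combined, so no level below has a spread between samples, its sequencing depth is unknown, and no difference between bagged and unbagged skin could be tested over samples. Differences between sets of regions are likewise given as descriptions with no test.

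CHH is a cytosine followed by 2 bases that are not guanine. A CHH site has no matching cytosine on the opposite strand to copy from after replication, so the mark has to be set anew. In Arabidopsis this is done by DRM2, guided by small RNAs in RNA-directed DNA methylation, and by CMT2, which acts in heterochromatin. In plant genomes CHH methylation is known mostly from transposons and repeats and often from their edges, and it changes with development and environment more readily than CG methylation. Which genes or repeats lie at the regions below was not analysed here.

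Losses were denser within 2000 bp of a gain than farther away. Of the 4533 losses, the 1582 near a gain are 34.9% (95% exact binomial interval 33.5 to 36.3, counting error only). Bases within 2000 bp of a gain, the gain included, made up 28.03% of the 486 Mb between the first base and the last listed region of each chromosome. The midpoints of 1556 losses (34.3%) fell on such bases. Density was 11.4 loss midpoints per Mb within 2000 bp of a gain and 8.51 per Mb beyond. Every base was counted, also any at which neither a loss nor a gain could have been called. The share of bases and the densities are therefore not those of the bases open to calling, which are unknown here.

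By distance, the density of loss midpoints was highest at 201 to 500 bp from a gain, with 15.5 per Mb. It was 14.2 per Mb at 501 to 1000 bp, 10.6 at 1001 to 2000 bp, 9.01 at 2001 to 5000 bp, 8.79 at 5001 to 10000 bp and 7.68 beyond. At 1 to 200 bp it was 7.14 per Mb, which is not read as fewer losses there. No loss overlapped a gain and the smallest gap was 53 bp, and since a midpoint also lies well inside its region, many bases of that class cannot hold a midpoint. Counted by the gap between edges, 190 losses lay within 200 bp of a gain. Losses in the other contexts, set against their own overall density, were also denser near CHH gains. At 201 to 500 bp the density relative to that on all bases was 1.66 for CHH losses, 1.94 for CG losses and 2.44 for CHG losses. Up to 2000 bp it was 1.22 for CHH losses, lower than 1.51 for CG losses and 1.59 for CHG losses. CG gains had 1.61 and CHG gains 1.52 there. These bases include those inside CHH gains, where no CHH loss had its midpoint. Closeness to CHH gains was thus not particular to CHH losses.

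**Figure D1:**
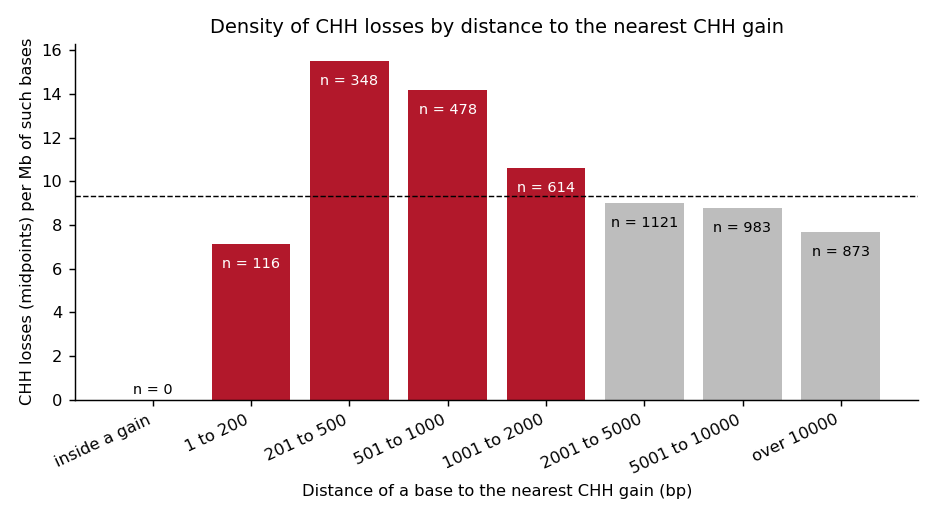
Loss midpoints per Mb (vertical axis) among bases grouped by their distance to the nearest CHH gain in bp (horizontal axis), with the number of losses in each bar and the density over all bases, 9.32 per Mb, as a dashed line. Red bars are distances up to 2000 bp and grey bars larger ones: the bars from 201 to 2000 bp stand above the line. The first bars are low and are not read as fewer losses. No loss overlapped a gain and a midpoint lies inside its region, and the cause of the low bars was not tested.

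Within the limit, gaps had a median of 766 bp (quartiles 382 and 1306). Up to 200 bp were 190 pairs of loss and nearest gain, 201 to 500 bp were 327, 501 to 1000 bp were 470 and 1001 to 2000 bp were 595. Only 36 losses had a gain within 100 bp. The nearest gain lay at lower coordinates for 803 losses and at higher coordinates for 779, nearly the same number. The 1582 losses had 1535 distinct nearest gains: 41 gains were nearest to 2 losses and 3 gains to 3 or more.

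At the limit itself, the last loss inside lay on chromosome 15 from 6719876 to 6720002, with a gap of 2000 bp and levels of 20.3% in bagged and 34.5% in unbagged skin. The losses before it, at 1998 bp on chromosome 17 (14655015 to 14655128) and at 1993 bp on chromosome 2 (16367321 to 16367573), had 13.1% and 8.94% in bagged skin, against 24.5% and 22.8% in unbagged skin. Just outside were losses on chromosome 8 (16497270 to 16497334) and chromosome 15 (26251975 to 26252070), both with a gap of 2004 bp. They had 3.23% and 4.21% in bagged skin, against 8.59% and 17.9% in unbagged skin. A further loss, on chromosome 4 from 14972135 to 14972188 (gap 2012 bp), had 8.05% in bagged and 19.7% in unbagged skin.

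Every chromosome carried such losses, 57 on chromosome 1 and up to 126 on chromosome 2. They were 41.2% of the 306 losses on chromosome 2 (interval 35.6 to 46.9) and 39.3% of the 313 on chromosome 11 (33.9 to 44.9). The lowest shares were 27.7% of 213 losses on chromosome 12 (21.8 to 34.2) and 29.6% of 301 on chromosome 10 (24.5 to 35.1). Bases within 2000 bp of a gain varied less, from 26.6% to 29.7% of a chromosome. The share of losses was above the share of bases on 16 of the 17 chromosomes, chromosome 12 being the exception. On chromosomes 1, 3, 8, 10 and 13 of these 16, the interval of the losses included the share of bases, and on the rest it lay above. Losses were counted here by the gap between edges and bases by their position, so the length of a region adds to the share of losses. Along the chromosomes, cut into 5 equal lengths, losses near gains were 32.4% of all losses in the first length, then 36.3%, 39.2% and 34.7%, and 31.6% in the last. Gains were likewise most numerous in the middle, with 7518 in the first length, 9453 in the middle and 7739 in the last.

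**Figure D2:**
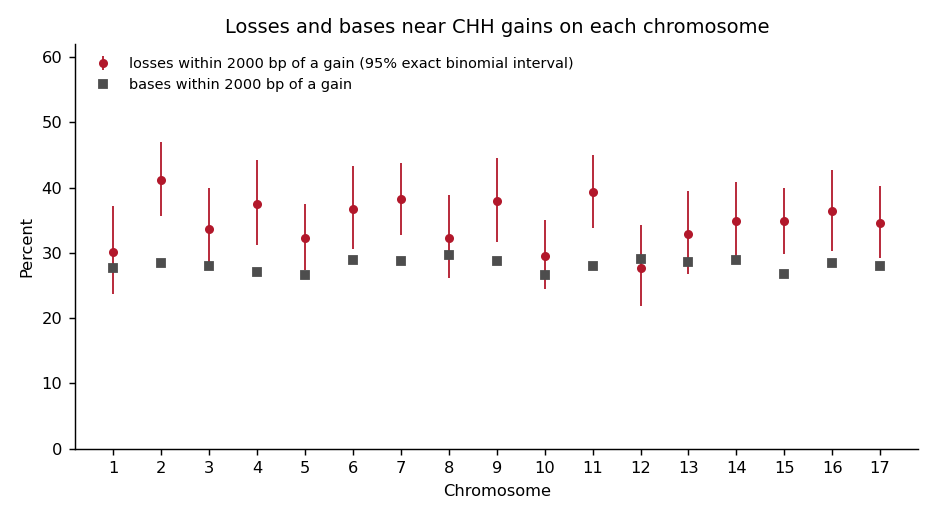
For each of the 17 chromosomes (horizontal axis), the percent of CHH losses within 2000 bp of a CHH gain (red circles, with 95% exact binomial intervals) and the percent of bases within 2000 bp of a gain (grey squares). Losses range from 27.7% to 41.2% and bases from 26.6% to 29.7%.

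Losses in bagged skin and their nearest gains in unbagged skin had similar medians, as had losses in unbagged skin and gains in bagged skin. The 1582 losses had a median of 10.03% in bagged skin (quartiles 5.32 and 18.3), against 25.9% in unbagged skin (17.4 and 37.3). Their nearest gains had a median of 27.5% in bagged skin (17.6 and 40.2), against 12.7% in unbagged skin (6.62 and 22.1). The median difference, bagged minus unbagged, was -14.0 points for the losses (quartiles -19.3 and -10.1) and 13.4 points for the nearest gains (9.65 and 17.2). The 2951 losses farther away had much the same medians, 9.22% in bagged and 25.5% in unbagged skin, and so had their own nearest gains, with 26.2% in bagged and 12.2% in unbagged skin. The sign of these differences follows from the rule. How regions were called is not given, so how far the calling set their size is unknown.

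**Figure D3:**
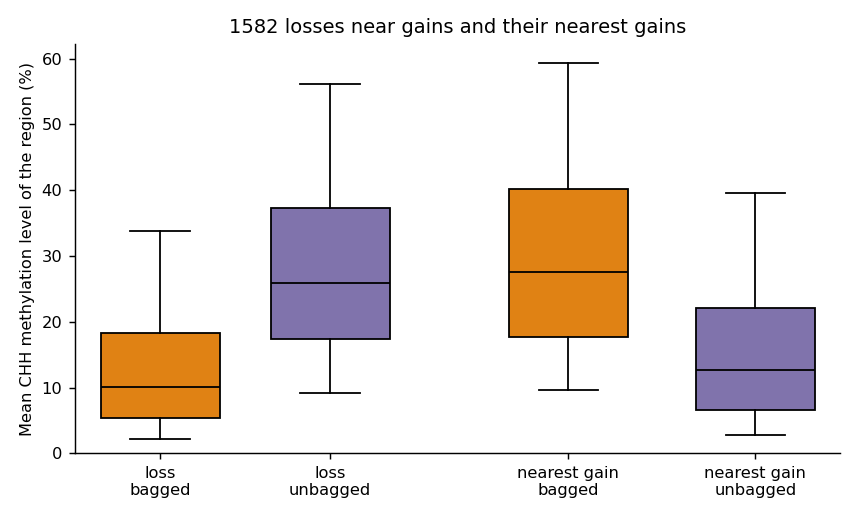
Mean CHH methylation level in percent (vertical axis) of the 1582 losses and of the nearest gain of each, in bagged (orange) and unbagged (purple) skin. Boxes span the quartiles with the median as a line, and whiskers reach the 5th and 95th percentiles: the losses in bagged skin and the gains in unbagged skin have medians of 10.03% and 12.7%, and the other boxes 25.9% and 27.5%.

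The bagged level was a median of 0.425 of the unbagged level (quartiles 0.297 and 0.548), so a loss usually kept some methylation. It was under 0.5 of the unbagged level in 1040 losses (65.7%) and under 0.2 in 165 (10.4%). The ratio was also set out by unbagged level, which is its own denominator, so that part of any trend follows from the grouping. Where the unbagged level was under 10%, the 105 losses had medians of 2.22% in bagged and 8.20% in unbagged skin, a median ratio of 0.281. With an unbagged level of 20 to 30%, 435 losses had medians of 10.02% in bagged and 24.5% in unbagged skin (ratio 0.417). With 50% or more, 138 losses had 34.5% in bagged and 57.5% in unbagged skin (ratio 0.625). In the same 3 classes the losses farther away had medians of 2.19%, 10.02% and 32.2% in bagged skin, against 8.42%, 24.8% and 56.2% in unbagged skin. The nearest gains of the losses near gains differed less between these classes, with medians of 26.7%, 27.02% and 33.1% in bagged skin, against 11.2%, 12.3% and 15.99% in unbagged skin.

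In 1055 pairs (66.7%, interval 64.3 to 69.0) the order of the neighbours turned round: in bagged skin the loss had the lower level and in unbagged skin the higher. These pairs had medians of 10.1% at the loss and 26.1% at the gain in bagged skin, against 27.0% and 11.4% in unbagged skin. In 322 pairs the loss was the lower region in both groups, with 4.83% at the loss and 43.5% at the gain in bagged skin, against 14.1% and 26.2% in unbagged skin. In the other 205 pairs it was the higher region in both, with 25.02% and 15.5% in bagged skin, against 44.1% and 6.31% in unbagged skin. The signs fixed by the rule favour a turned order, so its share was also computed for the 2951 losses farther away, each with its own nearest gain. There it was 60.6% (58.8 to 62.3). Their nearest gains rose by a median of 12.6 points, against 13.4 points in the near pairs. Larger differences of opposite sign also favour a turned order, and how much this adds to the difference between the shares was not tested.

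This share tended to be lower at larger gaps. It was 68.9% of the 190 pairs with a gap of up to 200 bp (61.8 to 75.4), 67.3% of those at 201 to 500 bp, 67.7% at 501 to 1000 bp and 64.9% at 1001 to 2000 bp. Beyond the limit it was 61.1% at 2001 to 5000 bp, 61.6% at 5001 to 10000 bp and 58.7% of 867 pairs over 10000 bp apart (55.3 to 62.01). Among the 36 pairs within 100 bp it was 80.6% (63.98 to 91.8). The levels of the losses themselves showed no such order by gap: the median was 10.4% in bagged and 25.8% in unbagged skin up to 200 bp, and 10.1% in bagged and 25.8% in unbagged skin at 1001 to 2000 bp. Nearest gains were at 30.3% in bagged and 14.4% in unbagged skin up to 200 bp, and at 26.4% in bagged and 11.5% in unbagged skin at 1001 to 2000 bp. Their median rise was 14.7 points up to 200 bp, then 12.9, 13.5 and 13.1 points in the other classes within the limit. Beyond the limit it was 12.5, 12.4 and 12.7 points. The shares by gap were not adjusted for the size of the rise.

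The sizes of the fall and of the neighbouring rise were weakly related. Across the 1582 pairs the size of the fall and the rise of the nearest gain had a Pearson correlation of 0.18 and a Spearman correlation of 0.19. The pairs share libraries, and some share a gain, so these describe the pairs only. Spearman's correlation was 0.19 at gaps of up to 200 bp, 0.25 at 201 to 500 bp, 0.19 at 501 to 1000 bp and 0.17 at 1001 to 2000 bp. Beyond the limit it was 0.099 at 2001 to 5000 bp, 0.11 at 5001 to 10000 bp and 0.024 over 10000 bp. Each of these was lower than every class within the limit, though the order from class to class was not steady. The 36 pairs within 100 bp, also counted in the class up to 200 bp, had 0.39. Ranked by their fall and cut into 4 sets of equal size, the losses of the first set fell by 3.13 to 10.1 points, and their nearest gains rose by a median of 12.1 points. Those of the last set fell by 19.3 to 54.5 points, and their nearest gains rose by a median of 14.8 points. Levels at the loss and the gain were less related, with Spearman correlations of 0.11 in bagged and 0.11 in unbagged skin.

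Set together, losses and their gains nearly balanced in the median, but most single pairs did not lie within 2 points of 0. With both regions weighted by their cytosines, the pair had a median level of 20.9% in bagged skin (quartiles 14.1 and 29.3), against 19.9% in unbagged skin (13.5 and 27.3). The median difference was 1.23 points (quartiles -2.85 and 5.44). It lay within 2 points of 0 in 410 pairs (25.9%) and was positive in 922 (58.3%), while the extremes were -34.9 and 34.01 points. The losses had a median of 24 cytosines and their nearest gains 33, so that the gains weighed more. Pairs built in the same way from the losses farther away had a median difference of 1.06 points (-3.07 and 5.13), close to that of the near pairs.

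**Figure D4:**
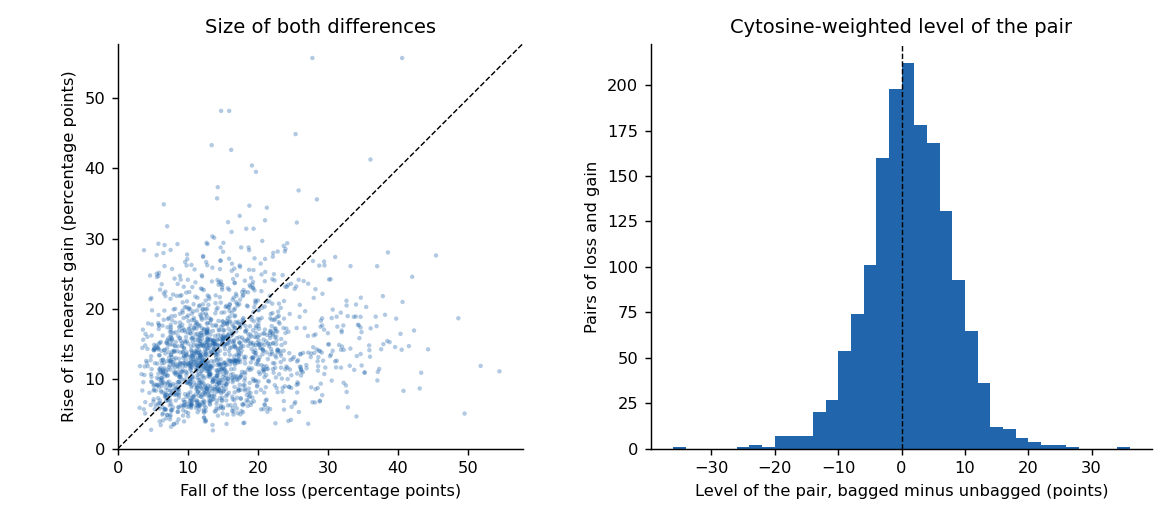
Left, the fall of each loss against the rise of its nearest gain, both in percentage points, for the 1582 pairs, with a dashed line where they are equal. Right, the number of pairs by the difference of their cytosine-weighted level, bagged minus unbagged, with the median at 1.23 points.

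A gain lay on both sides of 190 losses (12.01%) within 2000 bp. These losses had medians of 10.5% in bagged and 26.7% in unbagged skin. The nearer gains at lower coordinates had 29.1% in bagged and 13.03% in unbagged skin, and those at higher coordinates 25.5% in bagged and 12.3% in unbagged skin. From the first gain to the last, the 3 regions spanned a median of 2207 bp. In 144 of the 190 the loss was lower than both gains in bagged skin, in 136 it was higher than both in unbagged skin, and 93 showed both. At these 93 places (48.9%) the loss was the least methylated of the 3 regions in bagged skin and the most methylated in unbagged skin. The signs fixed by the rule favour this pattern too. No such share for losses farther away stands beside it, so it is not read as particular to these losses.

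Joining all CHH regions separated by 2000 bp or less gave 1513 runs with both directions, which held 1603 losses and 2233 gains. The 21 losses beyond the 1582 reach a gain only across another loss. Most runs were short: 979 consisted of a single loss and a single gain, 349 of 3 regions and 185 of 4 or more, with a median span of 1444 bp. Direction changed once along 1309 runs, at 2 places in 192, at 3 in 10 and at 4 in 2. No run held more than 3 losses, and 86 held more than 1.

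Both runs with 4 changes of direction had 7 regions, 2 of them losses. On chromosome 6 from 8383532 to 8387808, the first loss, 27 cytosines from 8384045 to 8384188, had 22.6% in bagged and 57.04% in unbagged skin, while the gain before it had 43.8% in bagged and 28.03% in unbagged skin. The second loss there (8387154 to 8387226) had 2.45% in bagged and 11.2% in unbagged skin, and lay between gains with 33.6% and 18.5% in bagged skin, against 19.9% and 8.84% in unbagged skin. On chromosome 8 from 11016824 to 11022660, a loss of 24 cytosines (11018807 to 11018889) had 9.65% in bagged and 28.6% in unbagged skin. A gain of 31 cytosines followed with 20.8% in bagged and 9.65% in unbagged skin. Then came a loss of 43 cytosines (11020088 to 11020296) with 7.03% in bagged and 43.1% in unbagged skin, and a gain of 25 cytosines (11020653 to 11020793) with 46.1% in bagged and 4.86% in unbagged skin.

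Of the runs with 3 changes of direction, those with the most regions were on chromosome 2 (10851603 to 10856694), chromosome 6 (5543214 to 5549725) and chromosome 17 (9293083 to 9299514). In the run on chromosome 2, 17 cytosines from 10853052 to 10853184 were methylated at 1.68% in bagged and 37.8% in unbagged skin, which is the lowest ratio of any loss near a gain with at least 10 cytosines. In that on chromosome 6, a loss of 72 cytosines with 18.2% in bagged and 38.6% in unbagged skin stood between gains with 71.3% and 64.03% in bagged skin, against 44.9% and 32.4% in unbagged skin. On chromosome 17, both losses kept high levels, 46.9% and 32.8% in bagged skin, against 61.7% and 52.5% in unbagged skin.

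**Figure D5:**
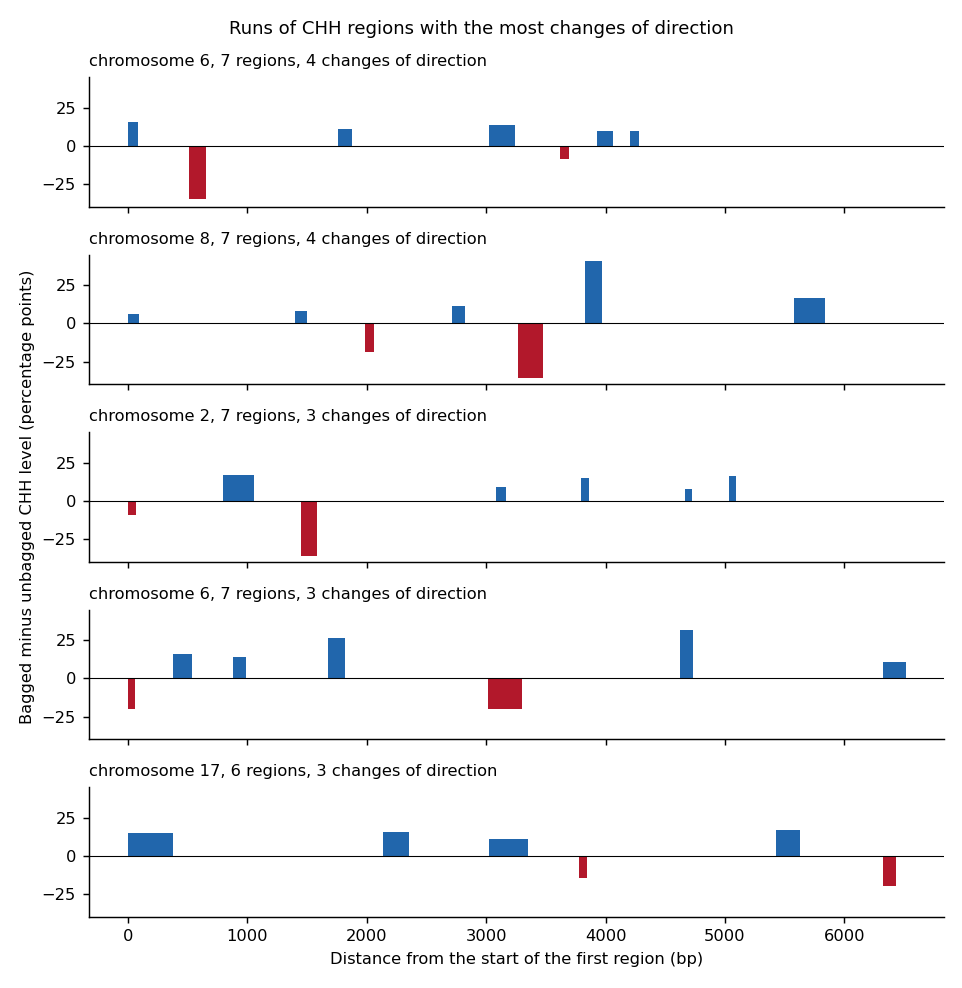
Bagged minus unbagged CHH level in percentage points (vertical axis) of each region along the 5 runs with the most changes of direction, by distance in bp from the start of the first region (horizontal axis). Red bars are losses and blue bars gains, and each bar is as wide as its region: 2 losses stand among 4 or 5 gains in every run.

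The 5 pairs with the smallest gaps all turned round in order, as did 66.7% of all 1582 pairs and 80.6% of the 36 within 100 bp. The signs fixed by the rule favour this order. On chromosome 4, a loss of 23 cytosines (12399840 to 12399933) had 8.79% in bagged and 30.6% in unbagged skin, and 53 bp on, a gain of 24 cytosines (12399987 to 12400065) had 30.5% in bagged and 13.7% in unbagged skin. The levels of the neighbours were thus nearly exchanged. On chromosome 5 the loss from 33403065 to 33403462 had 12.4% in bagged and 29.2% in unbagged skin, with a gain 54 bp away at 36.8% in bagged and 18.7% in unbagged skin. On chromosome 10 the loss from 6228051 to 6228222 had 2.96% in bagged and 14.6% in unbagged skin, and the gain, 56 bp away, 33.3% in bagged and 12.998% in unbagged skin. The remaining pairs were on chromosome 14 (loss from 13802541 to 13802702, gap 58 bp) and chromosome 16 (loss from 727568 to 727747, gap 59 bp), where the loss rested on 5 cytosines.

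The pairs with the largest sum of both differences were taken among the 1455 pairs with at least 10 cytosines in each region. First was chromosome 17, where 12 cytosines from 3237895 to 3237958 were methylated at 29.8% in bagged and 57.5% in unbagged skin, 181 bp from a gain of 24 cytosines (3237519 to 3237713) with 68.8% in bagged and 13.02% in unbagged skin. The loss at 11020088 on chromosome 8, described above, was second with its gain 356 bp away. After it came chromosome 13, where the loss from 4545201 to 4545333 had 7.25% in bagged and 52.7% in unbagged skin, and the gain from 4544662 to 4544801 43.4% in bagged and 15.8% in unbagged skin. On chromosome 15 the loss from 1435900 to 1436093 had 5.64% in bagged and 31.02% in unbagged skin, and its gain, 1496 bp away, 71.1% in bagged and 26.2% in unbagged skin.

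On chromosome 12 the pair of a loss from 5628604 to 5628725 and a gain from 5627354 to 5627714 balanced closely. The loss had 8.27% in bagged and 50.3% in unbagged skin and the gain 43.2% in bagged and 18.7% in unbagged skin, so that the weighted level of the pair was 30.4% in bagged and 30.3% in unbagged skin. Next were 2 pairs in which the gain was the larger change. The loss on chromosome 11 (18910157 to 18910207) differed by -15.9 points beside a gain of 48.2 points, and the loss on chromosome 8 (4070469 to 4070532) by -28.4 points beside a gain of 35.6 points.

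The largest single fall among the 1493 losses with at least 10 cytosines closes that list too. On chromosome 8 from 18414661 to 18414888, 36 cytosines were methylated at 5.58% in bagged and 57.4% in unbagged skin, whereas the gain 749 bp away was small, with 36.8% in bagged and 24.9% in unbagged skin. The pair together had 13.9% in bagged and 48.8% in unbagged skin. Besides the loss on chromosome 13 given above, the largest falls were then on chromosome 2 (15752376 to 15752459, -49.5 points), chromosome 9 (20374556 to 20374789, -44.3 points) and chromosome 11 (2659438 to 2659655, -43.3 points). On chromosome 11 the loss had 19.7% in bagged and 63.03% in unbagged skin and stayed above its gain, 140 bp away, which had 16.3% in bagged and 5.47% in unbagged skin.

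Relative to the unbagged level, the most complete losses after that on chromosome 2 were on chromosome 5 from 28089558 to 28089708, with 2.86% in bagged and 41.7% in unbagged skin, and on chromosome 3 from 21602929 to 21603007, with 1.18% in bagged and 16.2% in unbagged skin. That region on chromosome 3 lay 165 bp from a strongly methylated gain (21603173 to 21603337) with 62.3% in bagged and 44.2% in unbagged skin. A loss on chromosome 2 from 17539834 to 17539945 had 3.60% in bagged and 44.1% in unbagged skin, and another on chromosome 5 from 33353818 to 33353891 had 2.83% in bagged and 33.5% in unbagged skin.

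CG or CHG methylation was called as different at few of these losses. Of the 1582, 27 (1.71%, interval 1.13 to 2.47) shared at least 1 bp with a CG region, 26 (1.64%, 1.08 to 2.40) with a CHG region, and 44 (2.78%, 2.03 to 3.72) with either, 9 of them with both. The other context was also lower in bagged skin in 26 of the 27 CG overlaps and in 25 of the 26 CHG overlaps. The overlapping CG regions had medians of 17.96% in bagged and 50.4% in unbagged skin, and the CHG regions 18.9% in bagged and 45.7% in unbagged skin. Among the 1535 nearest gains, 15 (0.98%) overlapped a CG or CHG region, against 291 (0.69%) of all 42128 gains. In no pair did both the loss and its gain overlap such a region. With so few overlaps at either region, this absence is not read as a result about the pairs. Of the 2951 losses farther from gains, 55 (1.86%, 1.41 to 2.42) overlapped a CG or CHG region, all in the same direction. By context, 36 of them (1.22%, 0.86 to 1.68) overlapped a CG region and 24 (0.81%, 0.52 to 1.21) a CHG region. These intervals overlap with those of the losses near gains, which is not a test of a difference.

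Both exceptions had a gain in the other context over a CHH loss. On chromosome 11 from 29968472 to 29968584, CHH methylation was 27.6% in bagged and 44.95% in unbagged skin, while the CG region of 6 cytosines from 29968430 to 29968525 had 92.7% in bagged and 54.6% in unbagged skin. On chromosome 3 from 18061218 to 18061490, CHH methylation was 7.70% in bagged and 18.3% in unbagged skin, and 14 CHG cytosines from 18061184 to 18061359 had 59.5% in bagged and 39.4% in unbagged skin.

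Of the overlaps in the same direction, the largest CHH fall was on chromosome 14 from 22389222 to 22389390, with 12.9% in bagged and 34.2% in unbagged skin. Its CHG region (6 cytosines) stood at 8.73% in bagged and 49.04% in unbagged skin, and the CHH gain 350 bp away had 41.5% in bagged and 7.10% in unbagged skin. CHH levels on chromosome 11 from 9310023 to 9310190 were 16.7% in bagged and 35.7% in unbagged skin, and those of its CHG region 19.98% in bagged and 55.3% in unbagged skin. On chromosome 2 from 6794785 to 6794885, CHH levels were 12.9% in bagged and 30.4% in unbagged skin over a CG region with 47.6% in bagged and 74.8% in unbagged skin. On chromosome 12 from 21471604 to 21471884, all contexts were lower in bagged skin, with differences of -16.7 points in CHH, -27.1 in CG and -24.06 in CHG context.

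By themselves, losses near gains resembled the other losses in the remaining measures too. The median differences were -14.0 points near gains and -13.9 points farther away. A difference of at least 20 points was found in 354 (22.4%) of the losses near gains and in 688 (23.3%) of the others, against 23.0% of all losses. Lengths had medians of 91 bp (51 to 1365) and 94 bp, cytosines 24 in both sets, and cytosines per 100 bp 26.3 and 25.6. Another loss within 2000 bp was present for 116 (7.33%) of the losses near gains and for 238 (8.07%) of the others.

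The gains differed a little more. The 1940 gains within 2000 bp of a loss, nearest or not, had medians of 27.01% in bagged and 12.6% in unbagged skin, and a median difference of 13.1 points (quartiles 9.49 and 16.8). The 40188 gains farther from any loss had 24.4% in bagged and 11.7% in unbagged skin, with a median difference of 11.6 points (8.48 and 15.1). Gains near another gain but no loss, 17019 in number, had a median difference of 11.5 points. The quartiles of these sets overlap widely, and 4.61% of all gains were near a loss, where 3.69% of the bases lie, since losses are far fewer than gains.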

How the data were processed

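Libraries from skin DNA of 3 bagged and 3 unbagged samples were prepared, per the labels' protocols, with the Accel-NGS Methyl-Seq kit. The submitters' processing notes name Bismark version 0.16.3, an aligner and methylation caller for bisulfite reads, and FastQC. Not given in the sources used here is how regions were called, on which genome build and at what depth. A calling threshold or a merging distance could set how small a gap or a difference can be. The authors deposited 1 table with the mean methylation level of each region per group as a fraction, printed here as a percentage, together with the difference, an area statistic, which was read as a score of their caller, the length and the number of cytosines. With the coverage unknown, so is the precision of a level.

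The group of each column was taken from its name, which begins as the sample titles do. Differences are bagged minus unbagged levels and equalled the deposited ones. Positions were read as counted from 1. Each CHH loss on a chromosome was paired with its nearest CHH gain (Python 3.11.15, pandas 2.3.3), the gap being the bases between both edges; no ties occurred. The functions were tested on simulated regions. Distances of bases run to the last listed region of a chromosome and cover all bases, whether or not a region could be called there. Shares have 95% exact (Clopper-Pearson) intervals. These cover counting error only, as regions are not independent. No test was made. Named in the text are the 5 pairs with the smallest gap, the 8 with the largest sum of differences (at least 10 cytosines in both), the 5 losses with the largest fall and the 5 with the lowest bagged-to-unbagged ratio (at least 10 cytosines), the 5 runs with the most changes of direction, 3 losses on either side of the limit, and, among losses overlapping a CG or CHG region, the 5 with the largest fall and those of opposite direction. The members and these rules were chosen with earlier results of these data known. Alternatives changed the gap limit, the size of the difference, the number of cytosines, the area statistic, the scaffolds, the chromosomes and the choice of the gain.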

Additional observations from a re-analysis of the deposited data

How the results depend on the processing

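No paired analysis was possible because the deposited means combine the replicates of each group. Under the alternatives other than leaving out a chromosome, 42 of 65 values differed from those reported by less than a factor of 1.5 (number of losses) or lay in their 95% binomial interval (shares and medians), and 23 did not. All 136 values with a chromosome left out lay within these limits, but each leaves out few regions. The sign of the losses' difference is fixed by the rule and could not change. Each chromosome left out in turn gave 1456 to 1525 losses near gains, 34.4 to 35.3% of all losses, and a turned order in 66.5 to 66.96% of pairs. With a gap limit of 500, 1000 or 5000 bp, 517, 987 or 2699 losses were near a gain (11.4, 21.8 and 59.5% of all losses), and 4.06, 5.98 and 23.1% of them had gains on both sides, which follows from the limit itself. At 500 bp, 4.06% overlapped a CG or CHG region. With differences of at least 20 points in both regions, 81 losses lay near a gain (7.77%), with medians of 13.3% in bagged and 39.3% in unbagged skin and a difference of -24.3 points. The order turned round in 91.4% of these pairs, 4.94% had gains on both sides and 1.23% overlapped a CG or CHG region. Large differences of opposite sign favour a turned order, so that share follows in part from the limit itself. Among all 1582 pairs cut into 4 sets by the fall, it was 49.2% in the set with the smallest falls. In the set with the largest falls it was 81.3%. Among regions with an absolute area statistic at or above the median of all CHH regions, 292 losses lay near a gain (20.5%), with medians of 9.32% in bagged and 25.1% in unbagged skin, and 4.79% had gains on both sides. Fewer regions enter under these limits, and the cause of the other shifts was not tested. Counting the gap 1 bp larger, an alternative chosen after seeing the data, gave 1581 losses.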

Other observations

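Changes in the other contexts also lay near CHH gains. Of the 1207 CG losses on chromosomes, the midpoints of 512 (42.4%) fell within 2000 bp of a CHH gain, and of the 889 CHG losses 397 (44.7%), where 28.03% of the bases lie. CG gains had 340 of 751 (45.3%) and CHG gains 383 of 898 (42.7%) there. Most CG and CHG losses were thus farther away. Within CHH gains the directions differed: 20 CG losses and 6 CHG losses had their midpoint inside a CHH gain, against 101 CG gains and 137 CHG gains.

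Some CHH losses also lay near each other. Of the 4533 losses, 354 (7.81%, interval 7.04 to 8.63) had another loss within 2000 bp, while 3.69% of the bases lie within 2000 bp of a loss. Losses were counted by the gap between edges and bases by their position. All bases were counted, also any at which no region could be called, so these shares are not like for like. Of the 42128 CHH gains, 17801 (42.3%) had another gain within 2000 bp, while 34.9% of the losses had a gain there. At up to 100 bp, 36 losses (0.794% of all losses) had a gain, and 1591 gains (3.78% of all gains) had another gain.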
